A study of Mus musculus with 16 samples.

Results

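A set of 40 genes of the cell cycle and of DNA replication was followed through the colon of mice given water or a colitis agent, after vaginal or cesarean birth. They were chosen by name, from a list of symbols of replication and mitosis genes, and each of the 40 symbols matched 1 identifier among the 39328 genes of the deposited table. The rule sets 9 replication genes, the 6 Mcm genes with Pcna, Rrm1 and Rrm2, against the genes of mitosis. For the description, 7 genes of licensing, origin firing and the G1/S step were placed beside those 9, which gives a replication side of 16 genes and a mitosis side of 24.

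Total RNA was taken from the colon of wild-type adult mice of the outbred ICR stock. Delivery had been vaginal (VD) or by cesarean section (CS), and for 8 days the mice drank normal water or 3% dextran sulfate sodium (DSS), which injures the colon lining. CON_VD and CON_CS are the VD and CS mice on water, DSS_VD and DSS_CS those on DSS, and each of the 4 groups holds 4 libraries, 16 in all. No label ties a library to its own mouse, so the p-values cover the spread among these libraries alone, part of which may be technical. Values are FPKM, fragments scaled to gene length in kilobases and to the mapped total, so that levels can be compared between genes per length.

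A dividing cell first licenses its replication origins by loading the MCM helicase onto them, then copies its DNA in S phase with a sliding clamp and a supply of deoxynucleotides, and then condenses, aligns and separates its chromosomes under cyclin B and the mitotic kinases. Replication genes are transcribed before and during S phase, largely through E2F factors, and mitosis genes later, in G2 and M, largely through the DREAM and B-MYB complexes that bind the CHR element and neighbouring CCAAT boxes. In the colon most division takes place in the transit-amplifying cells of the lower crypt, while activated lymphocytes, above all B cells of germinal centres, also divide. In whole tissue, fewer cells of a type and less RNA per cell cannot be told apart.

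The libraries carried the markers of the labelled tissue: Car1, Cdx2, Epcam and Muc2 were above 0 in all 16. They differed in other ways that bear on the members. The 10 pan-epithelial genes summed to 5500 to 6631 FPKM in CON_VD, 6058 to 6692 in CON_CS, 2633 to 5735 in DSS_VD and 875 to 2718 in DSS_CS. Pbsn, which is made in the prostate, stood at 186 FPKM in CON_CS replicate 1, 128 in DSS_CS replicate 3 and 1355 in DSS_CS replicate 4, and at most 0.526 in the other libraries, so results for the CS mice are also given without these 3. CON_CS replicate 1 was the highest of the 16 libraries for 29 of the 40 members and DSS_CS replicate 2 the lowest for 25.

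Both sets of members are shown first at their promoters, which differ in the motifs they hold. Any relation of these motifs to the members' levels was not tested. RefSeq promoters on GRCm38.p6, from 250 bases before to 50 bases after the most upstream start, were at hand for 33 members, 13 of the replication side and 20 of mitosis. The lines below give the 150 bases before the start on the gene's own strand, 5′ to 3′, for 4 mitosis genes and 2 helicase genes. Capitals mark 3 motifs on either strand: CHR letters (TTTGAA or TTTAAA), the CCAAT box (CCAAT) and E2F core letters (TTGGCGC, or else TTCCCGC, or else TTCGCGC, or else TTGCCGC). They run over chr4:118437344-118437493 for Cdc20, chr11:99024190-99024339 for Top2a, chr13:100786487-100786636 for Ccnb1, chr7:122159285-122159434 for Plk1, chr8:75109359-75109508 for Mcm5 and chr1:128359706-128359855 for Mcm6, with Plk1 and Mcm5 on the plus strand and the others on the minus strand.
Cdc20: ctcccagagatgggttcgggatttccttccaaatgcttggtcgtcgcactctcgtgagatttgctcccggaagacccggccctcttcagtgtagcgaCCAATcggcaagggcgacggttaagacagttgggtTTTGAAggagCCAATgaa
Top2a: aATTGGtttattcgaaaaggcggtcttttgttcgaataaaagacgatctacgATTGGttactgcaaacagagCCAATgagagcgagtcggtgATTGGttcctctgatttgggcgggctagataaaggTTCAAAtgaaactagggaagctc
Ccnb1: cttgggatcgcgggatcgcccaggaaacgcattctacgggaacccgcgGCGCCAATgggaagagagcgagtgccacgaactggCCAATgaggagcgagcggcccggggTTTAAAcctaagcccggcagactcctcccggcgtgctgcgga
Plk1: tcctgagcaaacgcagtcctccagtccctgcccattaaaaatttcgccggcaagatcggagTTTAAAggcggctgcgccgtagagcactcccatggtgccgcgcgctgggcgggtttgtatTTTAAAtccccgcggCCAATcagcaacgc
Mcm5: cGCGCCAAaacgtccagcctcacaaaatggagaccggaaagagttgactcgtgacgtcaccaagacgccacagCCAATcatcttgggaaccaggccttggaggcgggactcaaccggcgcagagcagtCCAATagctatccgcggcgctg
Mcm6: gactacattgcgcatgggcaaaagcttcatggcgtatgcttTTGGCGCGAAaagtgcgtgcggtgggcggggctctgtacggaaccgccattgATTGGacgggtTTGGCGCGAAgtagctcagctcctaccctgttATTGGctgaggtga

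In Cdc20 the CHR letters began 18 bases before the start, with CCAAT boxes beginning 53 and 8 bases before it. Ccnb1 held TTTAAA 42 bases before the start and CCAAT 99 and 67 bases before it, and its outer CCAAT box overlaps E2F core letters on the other strand. Mcm5 held TTTAAA 221 bases before the start, outside the stretch shown. Mcm6 held no CHR letters but E2F core letters that began 109 and 46 bases before the start, and at both places TTGGCGC on the gene's strand overlaps TTCGCGC on the other, so each place counts as 2 matches. Over the whole windows, CHR letters of either form were in 18 of 20 mitosis promoters (90%), 5 of 13 of the replication side (38.5%) and 27.9% of all 27025 promoters. TTTGAA alone was in 15 of 20 mitosis promoters (75%) and 2 of 13 of the replication side (15.4%, Cdc45 and Mcm2), against 18.2% of all. TTTGAA together with CCAAT was in 75% of the mitosis promoters, 15.4% of the replication side and 7.16% of all promoters. E2F core letters were in 3 of 20 mitosis promoters (15%, Ccnb1, Cdk1 and Mki67) and 8 of 13 of the replication side (61.5%), against 9.72% of all. The CCAAT box alone was in 90% of the mitosis promoters, 69.2% of the replication side and 38% of all. Genes of the same functions outside the 40 held TTTGAA in 25 of 33 promoters for mitosis and 4 of 23 for replication. A match is a description of these letters and no measure of a factor's binding.

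The 40 members together held between 0.0523% (DSS_CS replicate 2) and 0.161% (CON_CS replicate 1) of a library's summed FPKM. By the mean over the 16 libraries Pcna, the sliding clamp of the DNA polymerases, ranked first, followed by the mitosis genes Cdc20, Plk1, Ccnb2 and Mki67, and Cdc6 ranked last. Neighbours in that order often overlapped over the libraries, as with Mki67 (5.72 to 29.5 FPKM) and Ube2c (4.71 to 21.3).

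**Figure D1:**
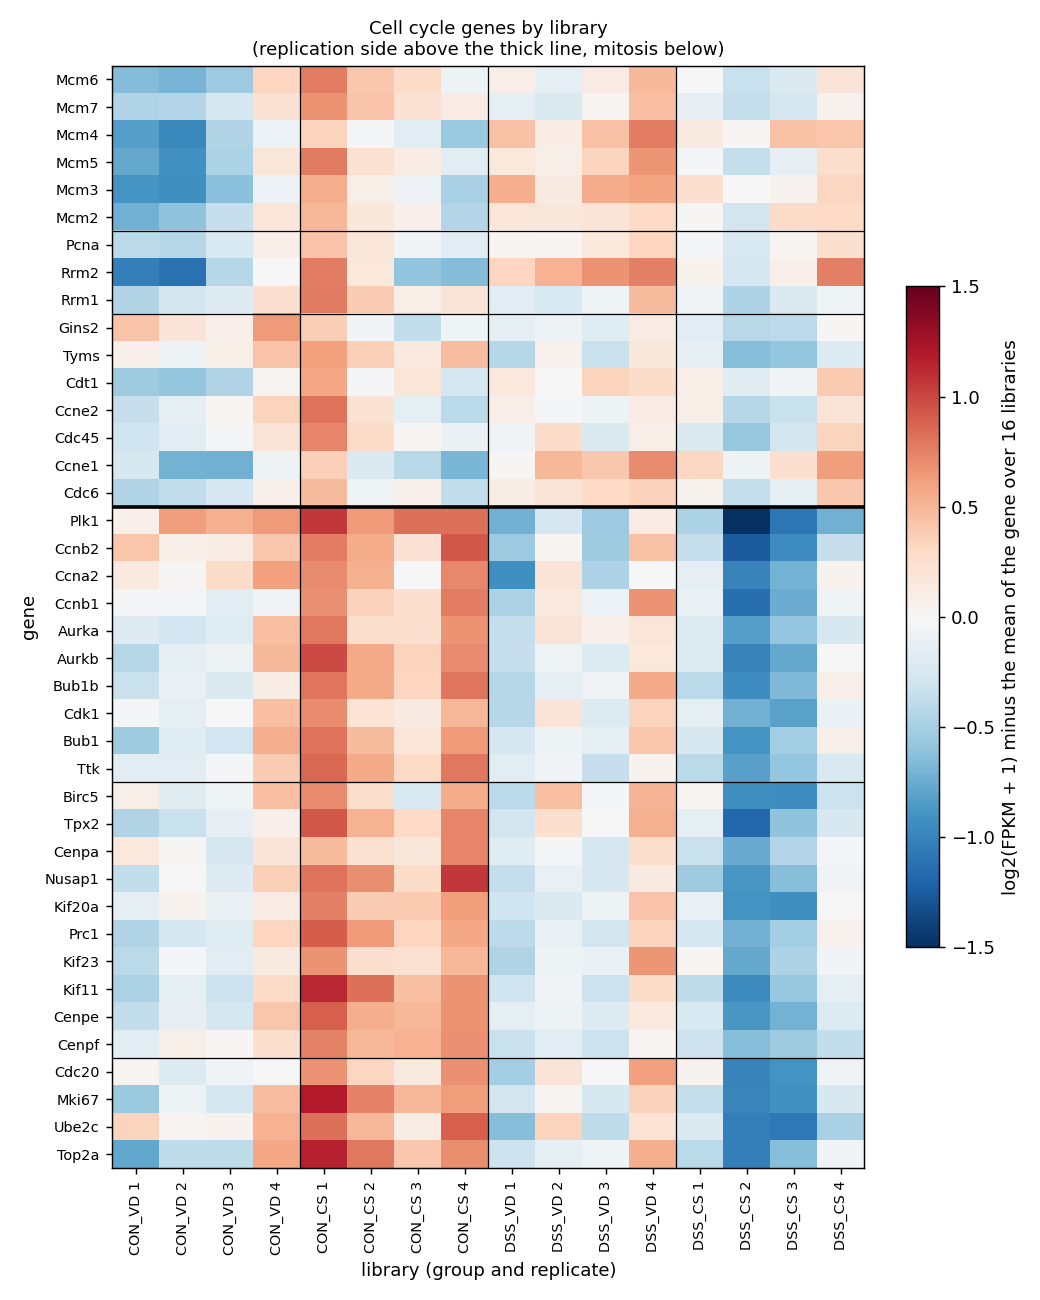
Heat map of the 40 genes (rows, grouped by role, with the replication side above the thick line) in the 16 libraries (columns, by group and replicate). Colour is log2(FPKM + 1) minus the gene's mean over the 16 libraries, red above and blue below. The mitosis rows are mostly red in CON_CS and blue in DSS_CS, and most replication rows are blue in the first 3 CON_VD libraries.

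The 6 Mcm genes encode the helicase that unwinds DNA at the fork. Mcm2 was at 1.72, 1.95, 2.52 and 4.06 FPKM in CON_VD, 5.32, 4.02, 3.70 and 2.29 in CON_CS, 4.07, 4.02, 4.11 and 4.50 in DSS_VD and 3.53, 2.69, 4.44 and 4.48 in DSS_CS. Mcm3 was at 3.48, 3.39, 4.37 and 6.78 FPKM in CON_VD, 11, 7.80, 6.81 and 4.92 in CON_CS, 11.1, 8.06, 11.1 and 11.5 in DSS_VD and 8.85, 7.28, 7.59 and 9.35 in DSS_CS. Both had their lowest values in CON_VD replicates 1 and 2, and the DSS_VD libraries lay within a narrow band for Mcm2. Mcm4 was at 4.09, 3.62, 5.60 and 7.53 FPKM in CON_VD, 10.4, 7.93, 7.07 and 5.17 in CON_CS, 11.3, 8.80, 11.2 and 14.4 in DSS_VD and 8.93, 8.18, 11.2 and 11.1 in DSS_CS. Mcm5 was at 4.17, 3.70, 5.37 and 9.06 FPKM in CON_VD, 14.2, 9.33, 8.54 and 6.91 in CON_CS, 8.89, 8.41, 10.1 and 13 in DSS_VD and 7.74, 5.87, 7.12 and 9.59 in DSS_CS. For Mcm4 every DSS_VD library exceeded every CON_VD library, while for Mcm5 the highest CON_VD library passed the lower DSS_VD ones. Mcm6 was at 6.09, 5.89, 6.66 and 13 FPKM in CON_VD, 17.9, 13.8, 12.6 and 9.55 in CON_CS, 10.9, 9.11, 11.2 and 14.7 in DSS_VD and 10.1, 7.85, 8.62 and 11.8 in DSS_CS. Mcm7 was at 6.31, 6.36, 7.34 and 10.8 FPKM in CON_VD, 15, 12.5, 10.7 and 9.87 in CON_CS, 8.12, 7.62, 9.31 and 12.7 in DSS_VD and 8.21, 6.82, 7.37 and 9.50 in DSS_CS. For these 2 the CON_VD replicate 4 value lay well above those of the other CON_VD libraries. Mcm3 lies on chr1:20802968-20820312 and Mcm5 on chr8:75109569-75128439 (GRCm38, GENCODE M21), both as protein-coding genes.

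Pcna and the 2 subunits of ribonucleotide reductase, which makes deoxynucleotides, followed. Pcna was at 22.8, 22.3, 25.7 and 32.5 FPKM in CON_VD, 41.4, 34.5, 29.2 and 27.2 in CON_CS, 31.3, 31, 34 and 38.2 in DSS_VD and 29.7, 25.7, 31.4 and 36.2 in DSS_CS. Rrm1 was at 3.36, 3.93, 4.18 and 6.06 FPKM in CON_VD, 9.20, 6.72, 5.39 and 5.80 in CON_CS, 4.32, 4.07, 4.69 and 7.26 in DSS_VD and 4.71, 3.29, 4.12 and 4.67 in DSS_CS. Rrm2 was at 2.96, 2.69, 4.99 and 7.01 FPKM in CON_VD, 12.6, 7.95, 4.34 and 4.12 in CON_CS, 9.08, 10.5, 11.8 and 12.5 in DSS_VD and 7.32, 5.66, 7.49 and 12.5 in DSS_CS. Rrm2, the subunit whose level limits the enzyme in S phase, was higher in all DSS_VD libraries than in any CON_VD library, whereas Pcna and Rrm1 overlapped. Pcna has a copy, Pcna-ps2, listed at a mean of 19.5 FPKM, so its values depend on how shared reads were assigned.

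Of the genes that license and fire origins or drive the G1/S step, Cdc6 and Cdt1 load the helicase and Ccne1 is cyclin E1. Cdc6 was at 0.547, 0.637, 0.771 and 1.23 FPKM in CON_VD, 1.94, 1.02, 1.24 and 0.637 in CON_CS, 1.29, 1.42, 1.60 and 1.68 in DSS_VD and 1.19, 0.646, 0.915 and 1.80 in DSS_CS. Cdt1 was at 2.15, 2.07, 2.35 and 3.69 FPKM in CON_VD, 5.86, 3.53, 4.18 and 2.81 in CON_CS, 4.12, 3.54, 4.77 and 4.56 in DSS_VD and 3.92, 3.03, 3.43 and 5.02 in DSS_CS. Ccne1 was at 1.64, 0.897, 0.885 and 1.94 FPKM in CON_VD, 2.96, 1.68, 1.32 and 0.935 in CON_CS, 2.13, 3.37, 3.10 and 4.06 in DSS_VD and 2.84, 1.94, 2.65 and 3.80 in DSS_CS. All 4 DSS_VD libraries exceeded all CON_VD libraries for Cdc6 and Ccne1, and not for Cdt1. Tyms was at 4.04, 3.55, 4.07 and 5.42 FPKM in CON_VD, 6.33, 5.13, 4.31 and 5.60 in CON_CS, 2.56, 4.0, 2.81 and 4.38 in DSS_VD and 3.33, 2.09, 2.22 and 3.16 in DSS_CS. Gins2 was at 7.28, 6.03, 5.47 and 8.56 FPKM in CON_VD, 6.92, 4.95, 3.76 and 4.89 in CON_CS, 4.56, 4.83, 4.42 and 5.69 in DSS_VD and 4.46, 3.61, 3.67 and 5.24 in DSS_CS. Tyms makes thymidylate and was highest in CON_CS by group mean, and Gins2, a subunit of the GINS complex at the fork, had its 2 highest values in CON_VD. Cdc45, the partner of that complex, ran from 1.19 to 4.38 FPKM over the 16 libraries, and Ccne2, cyclin E2, from 1.46 to 4.79.

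By group mean, all 10 mitotic kinases and cyclins were highest in CON_CS and lowest in DSS_CS. Plk1 was at 14.3, 21.5, 19.97 and 21.6 FPKM in CON_VD, 29.2, 21.6, 24.8 and 24.9 in CON_CS, 7.85, 11.2, 8.99 and 14.8 in DSS_VD and 9.48, 3.99, 5.84 and 7.79 in DSS_CS. Ccnb1 was at 6.75, 6.66, 5.96 and 6.54 FPKM in CON_VD, 11.6, 8.89, 8.32 and 12.3 in CON_CS, 4.63, 7.63, 6.34 and 11.4 in DSS_VD and 6.29, 2.58, 3.65 and 6.46 in DSS_CS. Aurka was at 4.65, 4.30, 4.71 and 7.82 FPKM in CON_VD, 10.2, 6.75, 6.65 and 9.31 in CON_CS, 4.05, 6.37, 5.83 and 6.35 in DSS_VD and 4.62, 2.63, 3.33 and 4.47 in DSS_CS. Plk1, a kinase needed from mitotic entry to cytokinesis, was lower in every DSS_CS library than in any library on water, and Ccnb1, cyclin B1, and Aurka, the spindle pole kinase, were lower in every DSS_CS library than in any CON_CS library. Bub1b was at 3.76, 4.57, 4.17 and 5.48 FPKM in CON_VD, 9.49, 7.86, 6.50 and 9.44 in CON_CS, 3.44, 4.46, 4.79 and 7.89 in DSS_VD and 3.55, 2.13, 2.80 and 5.37 in DSS_CS. Ttk was at 1.34, 1.34, 1.59 and 2.45 FPKM in CON_VD, 3.80, 2.91, 2.24 and 3.57 in CON_CS, 1.35, 1.58, 1.08 and 1.75 in DSS_VD and 1.0, 0.507, 0.762 and 1.25 in DSS_CS. Ccna2 was at 9.84, 8.88, 10.9 and 14 FPKM in CON_VD, 15.1, 13.2, 8.85 and 15.1 in CON_CS, 4.16, 10.2, 6.10 and 8.73 in DSS_VD and 7.82, 3.89, 4.97 and 9.16 in DSS_CS. Bub1b and Ttk, both of the spindle checkpoint, separated CON_CS from DSS_CS without overlap, and Ccna2, cyclin A2, did not. The other members of this group ran from 5.14 to 26.8 FPKM (Ccnb2), 2.08 to 11.2 (Aurkb), 2.32 to 8.49 (Cdk1) and 0.863 to 5.13 (Bub1).

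Among the genes of the spindle, centromere and cytokinesis, 4 are given by library. Tpx2 was at 4.08, 4.51, 5.40 and 6.33 FPKM in CON_VD, 12.2, 8.98, 7.58 and 10.5 in CON_CS, 4.74, 7.30, 5.94 and 9.07 in DSS_VD and 5.27, 2.07, 3.56 and 4.86 in DSS_CS. Kif11 was at 2.11, 2.91, 2.46 and 4.28 FPKM in CON_VD, 8.46, 6.63, 4.89 and 5.91 in CON_CS, 2.51, 3.15, 2.45 and 4.22 in DSS_VD and 2.31, 1.22, 1.92 and 2.93 in DSS_CS. These are a spindle assembly factor and the motor that pushes the poles apart, and Kif11 was higher in every CON_CS library than in any library of the other groups, while the DSS_VD range of Tpx2 reached into that of CON_CS. Cenpe was at 1.40, 1.85, 1.58 and 3.12 FPKM in CON_VD, 4.76, 3.52, 3.38 and 3.96 in CON_CS, 1.82, 1.94, 1.71 and 2.43 in DSS_VD and 1.65, 0.689, 0.892 and 1.69 in DSS_CS. Cenpf was at 1.03, 1.43, 1.30 and 1.72 FPKM in CON_VD, 2.83, 2.22, 2.27 and 2.66 in CON_CS, 0.802, 1.03, 0.821 and 1.33 in DSS_VD and 0.837, 0.461, 0.575 and 0.761 in DSS_CS. The kinetochore genes Cenpe and Cenpf separated CON_CS from the other groups as Kif11 did, with Cenpf under 1 FPKM in all DSS_CS libraries. The remaining 6 ran from 3.21 to 12.2 FPKM (Birc5), 2.51 to 8.87 (Cenpa), 2.08 to 10.8 (Nusap1), 1.91 to 8.27 (Kif20a), 1.88 to 7.88 (Prc1) and 1.81 to 6.61 (Kif23).

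Of the last 4 members, Mki67 encodes the Ki-67 antigen used to stain cycling cells and Top2a the topoisomerase that untangles sister chromatids. Mki67 was at 8.06, 11.7, 10.1 and 17.3 FPKM in CON_VD, 29.5, 21.4, 17.8 and 19.6 in CON_CS, 10.0, 12.7, 10.3 and 15.9 in DSS_VD and 9.40, 5.72, 6.11 and 10.3 in DSS_CS. Top2a was at 5.34, 7.35, 7.37 and 15.3 FPKM in CON_VD, 23.3, 17.9, 13.4 and 16.6 in CON_CS, 7.74, 8.79, 9.44 and 14.9 in DSS_VD and 7.19, 4.32, 6.01 and 9.56 in DSS_CS. Every CON_CS library was above every other library for Mki67, and for Top2a 1 CON_VD library and 1 DSS_VD library reached into the CON_CS range. Cdc20 and Ube2c, which drive mitotic exit, ran from 7.06 to 25 and 4.71 to 21.3 FPKM. Mki67 lies on chr7:135689784-135716361 and Top2a on chr11:98992943-99024189, both as protein-coding genes.

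**Figure D2:**
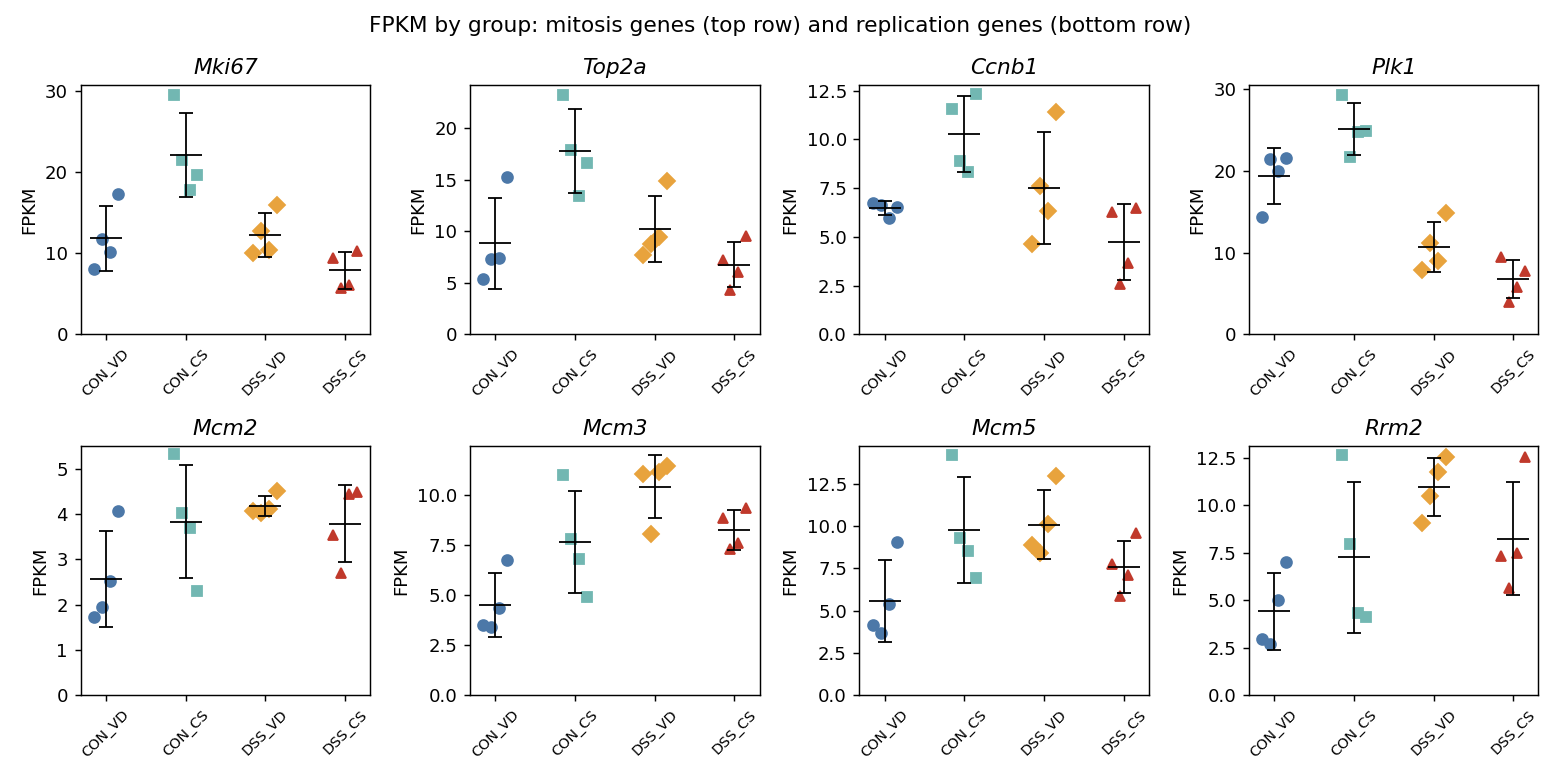
FPKM (linear axis from 0) of 4 mitosis genes (top row) and 4 replication genes (bottom row) in the 4 groups. Each point is a library, and the bar with whiskers is the mean ± SD of 4 libraries. The DSS_CS points lie below all CON_CS points in the top row and overlap them in the bottom row.

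DSS in the CS mice went with lower levels of the mitosis members, while most replication members did not pass the test. In limma on log2(FPKM + 1), with Benjamini-Hochberg adjustment over all 14372 genes tested, 27 of 40 members fell and none rose. Among all genes tested 25.9% fell and 34.4% rose at the same threshold of 0.05. All 24 mitosis members were among the 27. Cenpf, however, met the filter of 1 FPKM only through the 4 CON_CS libraries and so had to differ; without it 26 of 39 members and 23 of 23 of mitosis fell. These 23 had a median log2 difference of -1.10 and a range of -1.80 to -0.72, beside a median of 0.06 over all genes tested. For 21 of the 23, every DSS_CS library was below every CON_CS library, as for 24.1% of all genes.

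Plk1 fell from a mean of 25.1 ± 3.13 (SD, n = 4) to 6.77 ± 2.38 FPKM. On the log2(FPKM + 1) scale, which understates the change of low genes, that is a difference of -1.80 ± 0.21 (SE), with an adjusted p of 0.000104 in limma. Exons of Plk1 overlap Gm44985 on the opposite strand, at a mean of 23.2 FPKM in CON_CS and 2.03 in DSS_CS, and their reads cannot be told apart. Cenpf, whose filter is described above, gave -1.08 ± 0.11. Mki67 fell from 22.1 ± 5.17 to 7.87 ± 2.30 FPKM, a log2 difference of -1.39 ± 0.21 (adjusted p = 0.000434). Among the checkpoint and kinetochore genes, Ttk changed by -1.14 ± 0.16 and Cenpe by -1.16 ± 0.17. Kif11 and Top2a changed by -1.28 and -1.29, and Ccnb1 by -1.02 ± 0.25 (adjusted p = 0.00621). The smallest difference of the 24 on this scale, Kif23 at -0.72, also passed, with an adjusted p of 0.00994.

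Of the 16 replication-side members, 3 fell. Tyms changed by -0.79 ± 0.15 (adjusted p = 0.0015), Rrm1 by -0.57 ± 0.16 (adjusted p = 0.0137) and Mcm7 by -0.53 ± 0.14 (adjusted p = 0.0107). The 9 replication genes had a median of -0.10. Mcm2 had 3.83 ± 1.24 FPKM on water and 3.79 ± 0.851 on DSS, a log2 difference of 0.01 ± 0.21 with an adjusted p of 0.984. The differences of Pcna (-0.10 ± 0.15), Mcm5 (-0.30 ± 0.21) and Rrm2 (0.23 ± 0.34) did not pass either. Without CON_CS replicate 1, Ccne1 (0.71) and Mcm4 (0.50) passed the test as higher in DSS_CS. Without DSS_CS replicate 4, 5 replication-side members fell instead of 3, Cdc45 and Mcm6 being added.

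When each library was left out in turn, 22 of the mitosis members passed in all 8 fits and Birc5 in 4, while Cenpf was tested in 4 fits and passed in these. Without CON_CS replicate 1 and DSS_CS replicates 3 and 4 together, 19 of 23 mitosis members and 2 replication-side members fell. Over the same comparison all 10 pan-epithelial genes fell (median -1.93), and all 8 fibroblast genes rose. Among genes that reached 1 FPKM in some library of each group, 4 of 8 crypt base genes fell and 1 (Smoc2) rose, and 2 of 2 B cell and 5 of 5 myeloid genes rose. The 7 germinal centre genes summed to 6.13 to 7.88 FPKM in CON_CS and 24.6 to 35.6 in DSS_CS, none of them at 0 in DSS_CS. The part of these shifts in the fall of the mitosis members was not tested.

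Genes of the same pathway outside the 40 were read from lists drawn up with the members. All 40 other mitosis genes fell in the CS mice on DSS, 2 of which (Aspm and Kif15) met the filter only through CON_CS, and among the remaining 38 were Ect2 (-1.35), a regulator of cytokinesis, Kif20b (-1.15) and the kinetochore gene Spc24 (-1.33). Of 27 other replication genes tested 11 fell and 1, Cdc7, rose, beside 25.9% and 34.4% of all genes, and those of smallest p were Rfc5 (-0.44), Pola1 (-0.57) and Prim1 (-0.62). Of 24 cell cycle regulators 5 rose and 11 fell. The inhibitor Cdkn2d (1.09) and cyclin D3 (Ccnd3, 1.08) rose, and the inhibitor Cdkn2b (-2.16) fell.

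DSS in the VD mice gave another picture, with 8 of 16 replication-side members higher and 1 lower, and 1 of 24 mitosis members lower. Among the 40 members 8 rose and 2 fell, where 24% of the 13933 genes tested rose and 17% fell. The count that rose is not above the share of all genes, so nothing is read from it over the 40 members together. All 8 that rose were of the replication side: Mcm3, Rrm2, Mcm4, Ccne1, Cdt1, Cdc6, Mcm5 and Mcm2. Every DSS_VD library exceeded every CON_VD library for 5 of the 40 members, all among these 8, and for 22.2% of all genes. Nothing is read from that count either. The 9 replication genes had a median log2 difference of 0.58, the 24 mitosis genes one of 0.03 and all genes tested one of 0.06.

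Mcm3 rose from 4.50 ± 1.58 (SD, n = 4) to 10.4 ± 1.59 FPKM, a log2 difference of 1.08 ± 0.19 (SE) with an adjusted p of 0.002 in limma. Rrm2 rose from 4.41 ± 2.01 to 11 ± 1.52 FPKM, by 1.21 ± 0.24 (adjusted p = 0.0034). Mcm4 followed at 1.02 ± 0.21 (adjusted p = 0.00398) and Ccne1 at 0.84 ± 0.20 (adjusted p = 0.0079). The helicase loaders Cdt1 and Cdc6 rose by 0.57 and 0.49. Mcm5 rose by 0.80 ± 0.24 and Mcm2 by 0.58 ± 0.18, with adjusted p of 0.0235 and 0.0304. Pcna, at 0.38 ± 0.14, missed the threshold with an adjusted p of 0.0549.

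Mitosis members other than Plk1 did not pass in the VD mice. Plk1 fell from 19.3 ± 3.44 to 10.7 ± 3.08 FPKM, a log2 difference of -0.81 ± 0.20 (adjusted p = 0.0103 in limma). Its exons overlap Gm44985 on the opposite strand, at a mean of 31.3 FPKM in CON_VD and 4.54 in DSS_VD. Reads of this pair cannot be told apart. The next smallest p were those of Ccna2 (-0.56, adjusted p = 0.0922) and Cenpf (-0.25, adjusted p = 0.171). Mki67 differed by 0.08 ± 0.22, Top2a by 0.24 ± 0.29 and Ccnb1 by 0.13 ± 0.21. Gins2 was the replication-side member that fell, with a log2 difference of -0.40 ± 0.14 (adjusted p = 0.0443).

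Mcm3, Rrm2, Mcm4, Ccne1 and Cdt1 passed in all 8 fits that left out 1 library, Cdc6 in 6, Mcm5 in 3 and Mcm2 in 1. The count that rose was 5 without CON_VD replicate 2 or without DSS_VD replicate 3, and 10 without CON_VD replicate 4, which had the highest summed level of the members in its group (334 FPKM against 220 to 238). Gins2 passed in 2 of the 8 fits. Among genes that reached 1 FPKM in some library of each group, 7 of 7 B cell, 5 of 5 myeloid and 3 of 4 germinal centre genes rose with DSS in the VD mice too, while 5 of 8 crypt base genes fell, as did 4 of 10 pan-epithelial genes. B cell genes summed to 44.9 FPKM in CON_VD replicate 1 and to 2.60 to 5.59 in the other CON_VD libraries, against 136 to 277 in DSS_VD. The part of the lymphoid genes in the rise of the replication members was not tested.

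Among the replication genes outside the 40, 7 of 27 rose and none fell in the VD mice, where 24% of all genes rose, so nothing is read from this count. Those of smallest p were the fork protein Tipin (0.82), the kinase Cdc7 (0.67) and the flap nuclease Fen1 (0.64). Other mitosis genes gave 1 higher and 4 lower of 37, with Ncapg (-0.62), Cks2 (-0.64) and Cdca3 (-0.71) of smallest p. Regulators gave 5 higher and 3 lower of 23, also beside 24% and 17% of all genes, so nothing is read from these counts. Among them the factor E2f2 (1.04) and Cdkn2d (0.57) rose and Cdkn2b (-1.56) fell.

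**Figure D3:**
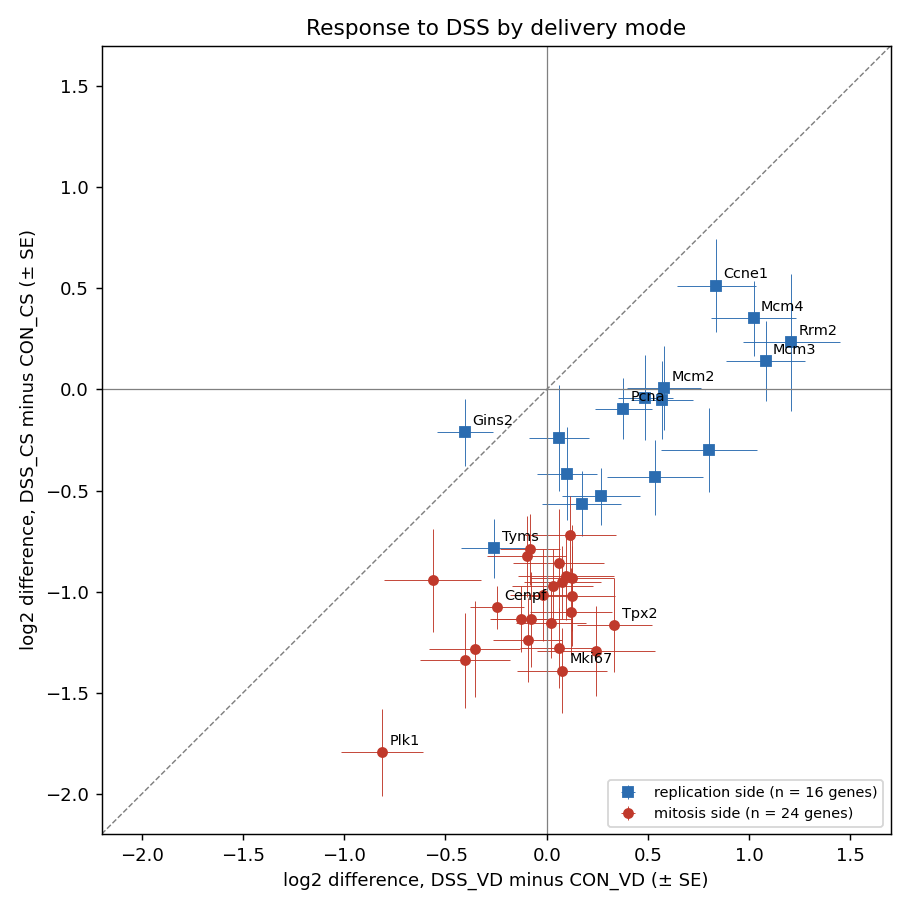
Log2 difference with DSS (± SE) of each of the 40 genes in the VD mice (x axis) and in the CS mice (y axis), as squares for the replication side and circles for mitosis, with the dashed line of equal response. All genes except Gins2 lie below the dashed line, and the circles lie between -1.80 and -0.72 on the y axis.

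Whether the response to DSS differed with delivery was tested as an interaction over all 16 libraries. It was below 0, a lower response in the CS mice, for 39 of 40 members, Gins2 being the exception, against 45.8% of the 15233 genes tested. The difference passed the threshold for 16 members, all lower, where 6.55% of all genes were called lower and 6.68% higher. Of these 16, 14 were mitosis genes and 2, Mcm5 and Mcm3, helicase genes.

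Cenpf had the smallest adjusted p of the interaction, 0.0116, at -0.83 ± 0.17. Larger differences were those of Top2a (-1.54 ± 0.39), Tpx2 (-1.50 ± 0.32) and Mki67 (-1.47 ± 0.33, adjusted p = 0.0146). Kif11 (-1.34), Cenpe (-1.18) and Ttk (-1.01) also passed, as did Ccnb1 at -1.15 ± 0.35 (adjusted p = 0.0421). The helicase genes Mcm5 (-1.10 ± 0.34) and Mcm3 (-0.94 ± 0.29) had adjusted p of 0.0432 and 0.0467. Mcm7 (-0.80, adjusted p = 0.0501) and Plk1 (-0.98, adjusted p = 0.0501) narrowly missed it. For Mcm2 the interaction was -0.58 ± 0.29, for Pcna -0.47 ± 0.21 and for Rrm2 -0.98 ± 0.44, none of which passed.

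Kif11, Cenpf, Nusap1, Tpx2, Mki67, Ttk, Bub1b and Cenpe passed in each of the 16 fits that left out 1 library. The count of members fell from 16 to between 8 and 10 without CON_VD replicate 1, 2 or 3, CON_CS replicate 1 or 2, DSS_VD replicate 2 or 4, or DSS_CS replicate 2 or 3. Without CON_CS replicate 1 and DSS_CS replicates 3 and 4 together it was 6, all mitosis genes. Outside the 40, the interaction was lower for 26 of 40 mitosis genes, among them Kif20b (-1.19), Ckap2l (-1.21) and Ndc80 (-0.88), and for 7 of 28 replication genes, among them Rfc5 (-0.70). Of 24 regulators 2 were higher (Ccnd3 and Cdkn2d) and 1 lower (Rbl1, -1.41), where 6.68% of all genes were called higher and 6.55% lower. Nothing is read from the regulator counts. In the same test 6 of 10 pan-epithelial and 4 of 8 surface colonocyte genes were lower and 3 of 8 fibroblast genes higher, against the same shares. The erythrocyte and myeloid lists are not counted here. Alas2 in the first and S100a8, S100a9 and Csf3r in the second reached 1 FPKM in no CON_CS library, so they met the filter through other groups. The part of these lists in the interaction of the members was not tested.

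The contrast of replication with mitosis was also read within each library, as the mean log2(FPKM + 1) of the 9 replication genes minus that of the 24 mitosis genes. It was -0.000688, -0.135, 0.195 and 0.272 in CON_VD and 0.277, 0.223, 0.195 and -0.463 in CON_CS. With DSS it was 1.06, 0.526, 0.974 and 0.698 in DSS_VD and 0.761, 1.19, 1.22 and 0.924 in DSS_CS. All 8 libraries on DSS lay above all 8 on water. The group means were 0.08 ± 0.19 in CON_VD, 0.06 ± 0.35 in CON_CS, 0.81 ± 0.25 in DSS_VD and 1.02 ± 0.22 in DSS_CS (SD, n = 4). With each library left out in turn, the difference between DSS and water ran from 0.65 to 0.83 in the VD mice and from 0.79 to 1.05 in the CS mice.

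Both means behind this difference are given by group (SD, n = 4), as levels over these gene sets that can be compared only across libraries. The replication mean was 2.79 ± 0.39 in CON_VD and 3.46 ± 0.21 in DSS_VD, and 3.36 ± 0.37 in CON_CS and 3.22 ± 0.22 in DSS_CS. The mitosis mean was 2.71 ± 0.24 in CON_VD and 2.65 ± 0.31 in DSS_VD, and 3.30 ± 0.24 in CON_CS and 2.20 ± 0.38 in DSS_CS.

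**Figure D4:**
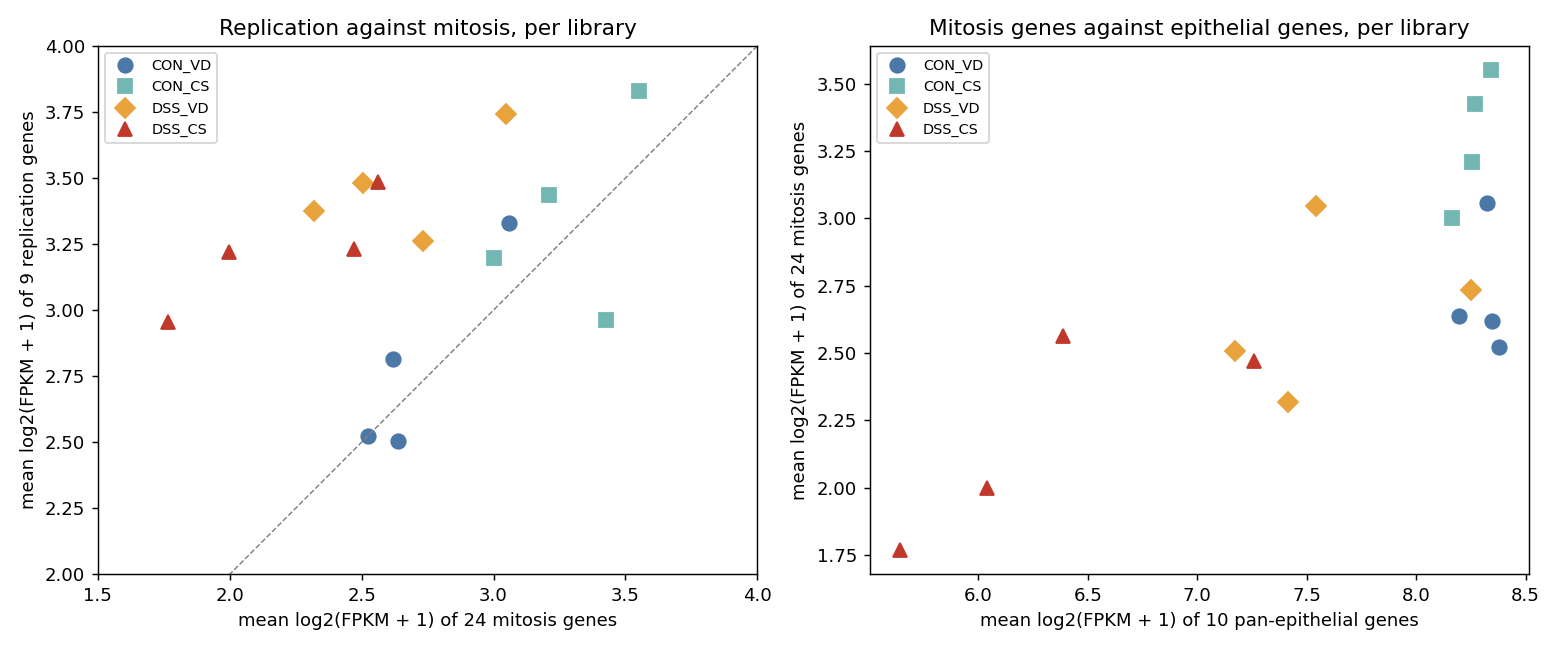
Each point is a library, by group. Left: mean log2(FPKM + 1) of 9 replication genes (y axis) against that of 24 mitosis genes (x axis), with the line of equal values; the 8 DSS libraries lie above it by 0.526 to 1.22. Right: the mitosis mean (y axis) against the mean of 10 pan-epithelial genes (x axis), where the 2 lowest libraries on both axes are DSS_CS replicates 2 and 3.

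On water, the CS mice had higher levels than the VD mice for 39 of 40 members, but no member passed the adjusted threshold. Of the 13275 genes tested 0.181% were called higher in CON_CS and 55.9% had a difference above 0. In limma 26 members had an unadjusted p under 0.05, all higher, against 11.7% of all genes. The median log2 difference was 0.54 over the members, 0.56 over the 9 replication genes, 0.57 over the mitosis genes and 0.03 over all genes tested. For 12 members, all of mitosis, every CON_CS library exceeded every CON_VD library, as for 6.31% of all genes. The libraries on water are also the controls of the DSS comparisons above, so the higher CON_CS levels and the lower responses of the CS mice to DSS rest in part on the same values.

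Bub1b came nearest to the threshold, with 4.50 ± 0.736 FPKM in CON_VD and 8.32 ± 1.44 in CON_CS (SD, n = 4), a log2 difference of 0.76 ± 0.14 and an adjusted p of 0.0631 in limma. Tpx2 (0.83 ± 0.16, adjusted p = 0.0705) and Cenpf (0.56 ± 0.11, adjusted p = 0.0752) came next. Mki67 differed by 0.87 ± 0.22, Top2a by 1.0 ± 0.28 and Ccnb1 by 0.58 ± 0.12. On the replication side Mcm7 (0.59), Mcm6 (0.74) and Rrm1 (0.53) had the smallest p, with adjusted values of 0.145, 0.181 and 0.184. Mcm2 (0.45), Mcm5 (0.73), Pcna (0.34) and Rrm2 (0.56) were above 0 as well, and Gins2 (-0.36) was below it.

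The count past the adjusted threshold moved with 1 library. Without CON_VD replicate 4, 14 members passed as higher in CON_CS, 12 of mitosis with Mcm6 and Mcm7, where 2.10% of all genes were called. With 1 library left out in turn, the median log2 difference of the members ran from 0.44 to 0.64. Without CON_CS replicate 1 none passed and 19 members had an unadjusted p under 0.05. None of the 10 pan-epithelial genes passed on water, but of 8 surface colonocyte genes 2 were lower in CON_CS, Aqp8 (-1.07, adjusted p = 0.0457 in limma) and Slc9a3 (-3.10). All 8 goblet genes (median -0.51) and the 4 erythrocyte genes tested (median -1.59) had a difference below 0, and none of them passed. The part of these lists in the members' differences was not tested. Outside the 40, no gene of the replication, mitosis or regulator lists passed, and Ect2 (0.83, adjusted p = 0.051 in limma) came nearest, with 35 of 40 other mitosis genes at an unadjusted p under 0.05.

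Under DSS all 39 members tested had a difference below 0, that is a lower mean in DSS_CS. None passed the adjusted threshold, where 5.54% of the 14313 genes tested were called lower and 41.6% had a difference below 0. Cenpf was not tested here because too few libraries reached 1 FPKM. In limma 7 members, all of mitosis, had an unadjusted p under 0.05, against 12.6% of all genes lower at that level. The median log2 difference was -0.21 over the 9 replication genes, -0.44 over the 23 mitosis genes tested and 0.06 over all genes.

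Mki67 had the smallest adjusted p, 0.0914 in limma, with 12.2 ± 2.73 FPKM in DSS_VD and 7.87 ± 2.30 in DSS_CS and a log2 difference of -0.59 ± 0.21. Aurka (-0.49 ± 0.18) and Tpx2 (-0.67 ± 0.25) followed. Cenpe was the member whose DSS_CS libraries all lay below the DSS_VD libraries, as for 7.18% of all genes. Top2a differed by -0.53 ± 0.24 and Ccnb1 by -0.57 ± 0.30. Of the replication side Mcm3 (-0.30 ± 0.13), Mcm5 (-0.37 ± 0.17) and Rrm2 (-0.41 ± 0.21) had the smallest p, and Mcm2 (-0.13) and Pcna (-0.13) lay nearer 0.

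The count at an unadjusted p under 0.05 moved with single libraries. It was 0 without DSS_VD replicate 4 or without DSS_CS replicate 2 or 3. It was 3 without DSS_VD replicate 2 and 20 without DSS_CS replicate 4. Pbsn was high in both DSS_CS replicates 3 and 4, and without these together the count was 10. In the same test 6 of 10 pan-epithelial, 6 of 7 surface colonocyte and 4 of 8 goblet genes were lower in DSS_CS, and 6 of 8 fibroblast, 4 of 8 myeloid and 3 of 5 erythrocyte genes higher. Their part in the members' differences was not tested. These counts moved with single libraries: over all genes none was called without DSS_VD replicate 1, 1 without DSS_CS replicate 3 and 2 with the replicate block. None of the other replication or mitosis genes passed, and of the regulators Ccnd3 (0.37), Cdkn1c (0.48) and Cdkn2d (0.39) were higher in DSS_CS.

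With the epithelial genes lower under DSS, the members were set against them within each library, as their mean log2(FPKM + 1) minus that of the 10 pan-epithelial genes. This difference was -5.75 ± 0.27 in CON_VD, -5.18 ± 0.18 in CON_CS, -4.88 ± 0.47 in DSS_VD and -3.97 ± 0.50 in DSS_CS (SD, n = 4). By group mean the members were thus highest relative to the epithelial genes in DSS_CS, the group in which the mitosis members were lowest in FPKM. The ranges overlapped, as DSS_CS replicate 1 (-4.72) lay below DSS_VD replicates 3 (-4.55) and 4 (-4.5). For the mitosis genes alone the difference from the epithelial genes was -4.96 ± 0.17 in CON_CS and -4.13 ± 0.45 in DSS_CS. Which cells held the remaining members' RNA was not tested.

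Some members share their sequence with other genes. Exons of 11 members overlap a gene on the opposite strand, and strandedness is not stated in the sources used here, so reads of such pairs cannot be told apart. For Plk1 this is Gm44985, at mean FPKM of 31.3 in CON_VD, 23.2 in CON_CS, 4.54 in DSS_VD and 2.03 in DSS_CS, so that both were lower in the DSS groups. For Gins2 it is Gse1, at 5.09, 7.16, 3.87 and 3.12 FPKM in the same order. Mcm7 overlaps Cops6, at 31.5 to 33.7 FPKM in the group means, where Mcm7 itself was at 7.69 to 12.02. The others are Cdc45 (Ufd1), Ccne2 (Ints8), Ccna2 (Exosc9), Kif20a (Cdc23), Nusap1 (Oip5), Prc1 (Rccd1), Cdc20 (Elovl1) and Ube2c (Tnnc2).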

How the data were processed

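RNA-seq of whole mouse colon was deposited as 1 table of 39328 genes by 16 libraries, whose values the authors give as FPKM; no counts were used, the depth of each library is unknown, and an FPKM of 0 is read as listed at 0. Per the submitters' processing notes, reads were handled with cutadapt and FastQC (no version stated) on GRCm38. The aligner, the quantifier, the annotation and the strandedness: not given in the sources used here. Trizol was used for extraction, per the labels' protocols. FPKM sums per library ran from 280135 to 343423.

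Symbols came from a table of gene names (39181 identifiers matched), positions from GENCODE M21 and promoters from RefSeq (GRCm38.p6). The labels gave each library's group and replicate number. Differences of log2(FPKM + 1) were tested in R 4.3.3 by limma 3.58.1, whose variance prior followed the mean level, for genes with at least 1 FPKM in at least 4 fitted libraries. Log2 differences are on this scale, which understates the changes of low genes. P-values are two-sided, Benjamini-Hochberg adjusted over all genes tested, with a threshold of 0.05. A comparison of 2 groups used only their 8 libraries, and the interaction used all 16. The fits were tested on simulated data. Figures were drawn with matplotlib 3.10.9.

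The members and lists were chosen with earlier results of these data known. For each comparison the genes named are the members past the threshold, at most 6 of each side by smallest p, or the 3 of smallest p where fewer than 3 passed, always with Mki67, Top2a, Ccnb1, Mcm2, Mcm5, Pcna and Rrm2, and at most 3 genes of any other list. Genes named beyond these were chosen after their values were seen. Alternatives tried were a pseudocount of 0.1, no filter, a filter at 2 FPKM, median-of-ratios scaling, a replicate block, no trend, 1 fit on all groups and leaving out libraries.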

Additional observations from a re-analysis of the deposited data

Results flagged for a closer look

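Among the 160 sets of 4 FPKM values (40 members in 4 groups), 3 held a library far from the other 3, where chance gives about 1 in 20 sets. Mcm6 was at 13.0 FPKM in CON_VD replicate 4 and at 5.90 to 6.66 in the other CON_VD libraries. Aurka was at 7.82 FPKM in the same library and at 4.30 to 4.71 in the others. Mcm3 was at 8.07 FPKM in DSS_VD replicate 2 and at 11.1 to 11.5 in the others.

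Of the scores, the replication minus mitosis difference of CON_CS replicate 4 was -0.46, with the other CON_CS libraries at 0.20 to 0.28. The members minus the pan-epithelial genes stood at -4.72 in DSS_CS replicate 1, with the others at -3.83 to -3.65. For the 9 replication genes minus the pan-epithelial genes, DSS_CS replicate 1 was at -4.03 and the others at -2.90 to -2.68.

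For 16 members the response to DSS differed between CS and VD mice in the interaction test. The log2 differences of the responses were -0.94 for Mcm3 and -1.10 for Mcm5 among the helicase genes. Among the kinases and cyclins they were -1.03 for Aurka, -1.06 for Aurkb, -1.22 for Bub1b, -1.01 for Ttk and -1.15 for Ccnb1. Spindle, centromere and cytokinesis genes gave -1.50 for Tpx2, -1.34 for Kif11, -1.0 for Kif20a, -1.15 for Nusap1, -1.0 for Prc1, -1.18 for Cenpe and -0.83 for Cenpf. Mki67 gave -1.47 and Top2a -1.54.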

How the results depend on the processing

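The fall of the members in the CS mice on DSS (27) and the shift of replication against mitosis with DSS kept their direction in each alternative run for them. Leaving out 1 library gave 25 to 29 members lower and 0 to 2 higher in the CS mice, and 5 to 10 higher and 1 to 3 lower in the VD mice. In the interaction it gave 8 to 21 members and 1056 to 2515 genes of all. For CS against VD on water it gave 0 to 14 members and 0 to 275 genes, and under DSS 0 members and 0 to 2054 genes. Without a filter the genes called were 3 for CS against VD under DSS (1923 in the test reported), 3 on water (54) and 1042 for the interaction (2015), with 6 members in the interaction and 1 lower in the VD mice. One fit on all groups called 1 member lower under DSS, with 3855 genes, and 1 member higher on water. Without DSS_CS replicates 3 and 4, 6 genes were called under DSS. Without these and CON_CS replicate 1, 5217 genes were called for DSS in the CS mice and 637, with 6 members, in the interaction.

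Uncalled differences that changed sign were those of Mki67 in the VD mice, at -0.025 with median-of-ratios scaling and -0.074 (without CON_VD replicate 1) to 0.26 with 1 library left out, and of Ccnb1 there, at -0.075 (without DSS_VD replicate 4) to 0.31. In the CS mice Mcm2 gave -0.094 with median-of-ratios scaling, -0.061 without the 3 libraries and -0.17 (without CON_CS replicate 4) to 0.15 with 1 left out, and Pcna -0.18 to 0.016 (without CON_CS replicate 1). Median-of-ratios scaling moved the VD members from 27 above 0 to 20, and the median of all genes from 0.06 to -0.03. The cause of these changes was not tested.

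Same-numbered libraries did not deviate together (correlations from -0.28 to 0.13), and the labels tie them by number alone. Such correlations cannot exclude a shared litter or batch, which the labels do not give. With the replicate block 27 members fell in the CS mice, 10 rose and 2 fell in the VD mice, 18 passed in the interaction and none between CS and VD, where 2 genes of all were called under DSS and 7 on water. FPKM without counts give no depth, so low members such as Cdc6 and Cenpf carry an unknown counting error.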
